A study of Mus musculus with 4 samples.

Results

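Lipid synthesis and acetyl-CoA supply were followed through 10 genes. They were the acetyl-CoA and NADPH suppliers Acss1, Acly and Me1, fatty acid synthase Fasn and the desaturases Scd1 and Scd2. The others were the triglyceride enzymes Gpam, Dgat1 and Dgat2, and the lipogenic regulator Srebf1. All 10 are among the 12393 genes that have a probe set of their own on the array. Of 22626 probe sets, 22 carry 1 of these symbols alone. The probe set that stands for a gene was chosen by its mean log2 signal over the 4 arrays, the highest among the gene's probe sets, so its brightness is part of the choice and is given only as a description. All 10 representative probe sets passed the filter on low signals, as did 7 of the 12 others. Gastrocnemius, a calf muscle, was taken at 6 weeks of age from 2 MCK-PPARb mice and 2 non-transgenic littermates, with 1 array per mouse as the titles number them. The MCK-PPARb mice carry a transgene that overexpresses the nuclear receptor PPARbeta, the product of Ppard, specifically in muscle, and MCK is the usual short name of the muscle creatine kinase promoter. The labels call the littermates wild-type and give no further allele, agent, strain, sex or diet for either group. The design text can also be read as repeat measurements, so p-values measure only the spread between these arrays, which may be technical.

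Fatty acids are built in the cytosol from acetyl-CoA. Acly releases acetyl-CoA from exported citrate, whereas acetyl-CoA synthetases make it from acetate. The product of Acss1 does so in mitochondria and that of Acss2 in the cytosol and nucleus. Acss1 thus makes acetyl-CoA outside the compartment where fatty acids are built. Me1, cytosolic malic enzyme, provides NADPH, Fasn assembles palmitate, desaturases of the Scd family introduce a double bond, Gpam attaches the first fatty acid to glycerol phosphate, and Dgat1 and Dgat2 complete triglyceride. In liver and fat, Srebf1 encodes a membrane-bound transcription factor that is cleaved before it enters the nucleus and activates many of these enzyme genes. Skeletal muscle mainly burns fatty acids, and its capacity to make them is low beside that of liver and fat.

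The 3 promoters below are shown because Acss1 had the largest difference among the genes, Fasn is an enzyme gene known as a target of the Srebf1 product, and Srebf1 is that regulator. RefSeq promoter sequences (GRCm38.p6, 250 bases before to 50 after an annotated start) matched 6 of the 10 genes with 10 starts in all. They belong to Acss1, Acly, Me1, Fasn, Gpam and Srebf1, and the Srebf1 start shown is the third of its 3 entries. Each sequence is on the minus strand, at chr2:150668191-150668490 for Acss1, chr11:120824498-120824797 for Fasn and chr11:60210422-60210721 for Srebf1. Capitals mark exact matches, on either strand, to the NF-Y box CCAAT or the GC box GGGCGG.
Acss1: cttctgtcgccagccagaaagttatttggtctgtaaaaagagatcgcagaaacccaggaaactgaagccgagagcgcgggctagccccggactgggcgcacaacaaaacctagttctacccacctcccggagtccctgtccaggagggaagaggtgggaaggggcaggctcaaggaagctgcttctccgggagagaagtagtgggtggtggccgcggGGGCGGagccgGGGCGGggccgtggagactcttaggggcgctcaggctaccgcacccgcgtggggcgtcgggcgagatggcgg
Fasn: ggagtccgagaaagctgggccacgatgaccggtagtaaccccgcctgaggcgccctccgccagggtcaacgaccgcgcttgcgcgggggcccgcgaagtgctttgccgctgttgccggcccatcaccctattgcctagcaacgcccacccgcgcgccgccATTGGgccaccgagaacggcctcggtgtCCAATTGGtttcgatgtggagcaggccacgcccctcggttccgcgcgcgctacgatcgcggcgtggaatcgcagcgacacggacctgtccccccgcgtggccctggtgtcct
Srebf1: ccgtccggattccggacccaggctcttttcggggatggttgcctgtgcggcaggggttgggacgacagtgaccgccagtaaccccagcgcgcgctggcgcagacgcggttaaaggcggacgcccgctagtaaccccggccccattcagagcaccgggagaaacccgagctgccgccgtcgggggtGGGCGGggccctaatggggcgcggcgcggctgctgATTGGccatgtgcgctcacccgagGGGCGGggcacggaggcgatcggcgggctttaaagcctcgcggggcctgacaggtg
CCAAT was present in 6 of the 10 promoters of these genes and in 37.4% of all 32851 promoters of that length, and GGGCGG in 6 of 10 and in 35.7%. Acss1 held 2 matches to GGGCGG, at -33 to -28 and -22 to -17 from the annotated start. Fasn held 3 matches to CCAAT, of which those at -62 to -58 and -59 to -55 overlap on opposite strands. The Srebf1 start shown held 1 match to CCAAT and 2 to GGGCGG, and is the only Srebf1 start with both. Of the Srebf1 starts not shown, the first matched CCAAT alone and the second GGGCGG alone. The sterol regulatory element TCACNCCAC, the E-box CACGTG and the direct repeats AGGTCANAGGTCA and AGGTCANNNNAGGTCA had no exact match in any of the 10 windows. They occur in 1.24%, 7.15%, 0.0396% and 0.0152% of all promoters. These are descriptions of exact letters in short windows, with no search for variant forms of a motif, and say nothing of binding.

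Each array gives every probe set 1 signal intensity. The arrays had a common trimmed mean of 1501 signal units and medians of 431 to 513, and their number limits the precision. The 10 brightest probe sets held 4.11% of all signal on non-transgenic replicate 1, against 2.29% to 2.71% on the other arrays. Ppard read 126049 and 98797 in MCK-PPARb muscle and 2169 and 2825 in non-transgenic muscle, in the direction of the labels. The 8 markers of skeletal muscle that were listed, Tnni2, Ckm and Tnnt3 the brightest among them, all passed the filter. Their summed signal was 1078056 and 961123 in MCK-PPARb and 1606927 and 938627 in non-transgenic muscle, and the groups overlapped.

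In MCK-PPARb muscle, 2 of the 10 genes rose, Acss1 and Scd1, none fell, and 8 did not pass. The test was limma over all 11313 kept probe sets, with a call at an adjusted p under 0.05. The calls took in 0.601% of these probe sets, 0.336% on the higher and 0.265% on the lower side, and of the 6841 genes tested 0.731% were called, 0.409% higher and 0.322% lower. The genes were gathered with this contrast in view, so their share of calls is only set beside that background. An unadjusted limma p under 0.05 was found for 7 of the 10 genes and for 10.9% of all genes tested. Of the 9 enzyme genes, 7 had both MCK-PPARb arrays above both non-transgenic arrays, Me1 had both below, and Gpam overlapped, while 22.2% of all genes tested lay wholly above and 20.8% wholly below. The median log2 difference was 0.81 over the 9 enzyme genes and 0.011 over all genes tested. Differences throughout are on the log2 scale, MCK-PPARb minus non-transgenic, with limma's SE from n = 2 per group. The smallest p that an exact permutation of 2 arrays against 2 allows is 0.333, so every call depends on limma's pooling of the spread over probe sets.

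**Figure D1:**
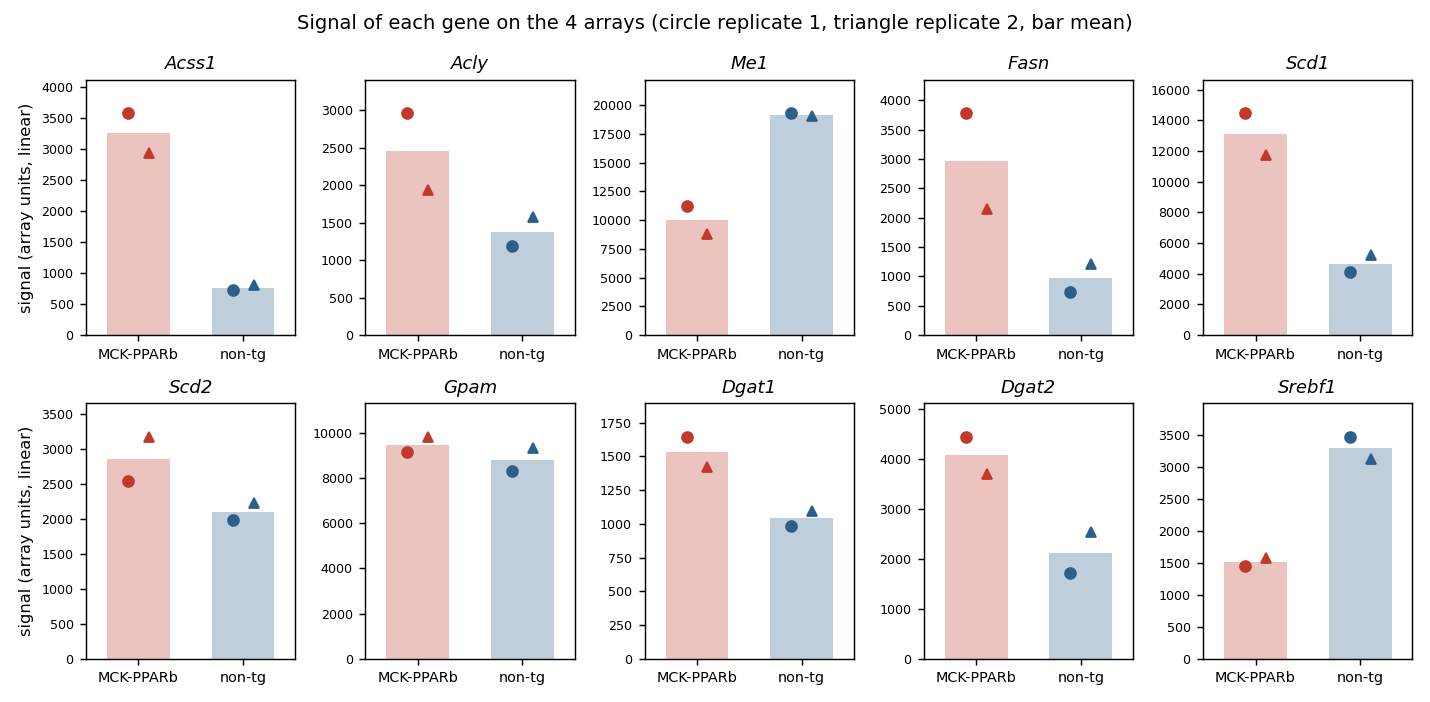
Signal (array units, linear scale from 0, 1 panel per gene with its own axis) of the representative probe set on each array, with MCK-PPARb left and non-transgenic (non-tg) right, replicate 1 as a circle, replicate 2 as a triangle and the group mean as a bar. Acss1 stands at 3578 and 2940 in MCK-PPARb muscle, against 731 and 800 in non-transgenic muscle, while Srebf1 and Me1 are lower on both MCK-PPARb arrays and Gpam overlaps.

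Acss1, mitochondrial acetyl-CoA synthetase, had a signal of 3578 and 2940 in MCK-PPARb muscle and 731 and 800 in non-transgenic muscle. Both MCK-PPARb arrays stood far above the non-transgenic pair, and the arrays of a group lay close to each other. The gene rose 4.24-fold, a difference of 2.08 ± 0.24 (adjusted p = 0.0166), the 16th highest of 6841 genes. The call was lost without MCK-PPARb replicate 1 (1.94, adjusted p = 0.0729) and without limma's intensity trend (adjusted p = 0.0556). The other probe sets of Acss1 lay below the filter level of 444 signal units. They read 190 and 219.9 in MCK-PPARb muscle against 170.9 and 149.9 in non-transgenic muscle, and 135.6 and 8.30 against 12.5 and 18.2. When all its probe sets were averaged, these dim ones included, Acss1 was at 1.20 and not called (adjusted p = 0.579).

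Acly, the citrate-cleaving enzyme, read 2965 and 1938 in MCK-PPARb muscle and 1190 and 1573 in non-transgenic muscle. The groups did not overlap, but the lower MCK-PPARb array was nearer to the upper non-transgenic one than to its own partner. The difference of 0.81 ± 0.29 did not pass (adjusted p = 0.367), and its 95% interval ran from 0.13 to 1.49. It was 0.50 without MCK-PPARb replicate 1 and 1.12 without MCK-PPARb replicate 2, not passing in either case (adjusted p = 0.917 and 0.427). The other kept probe sets of Acly overlapped between the groups. They had differences of 0.43 ± 0.34 and -0.077 ± 0.38, and the gene's value thus varied with the probe set.

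Me1, which supplies NADPH, read 11242 and 8804 in MCK-PPARb muscle and 19328 and 19031 in non-transgenic muscle. Both MCK-PPARb arrays were lower, and the non-transgenic arrays almost coincided. With a difference of -0.95 ± 0.19 and an interval of -1.40 to -0.49, the gene did not pass (adjusted p = 0.107). A further kept probe set of Me1 read 7121 and 2711 in MCK-PPARb muscle and 9653 and 9130 in non-transgenic muscle, with a difference of -1.10 ± 0.40. It had the same order of the groups and a wide gap between the MCK-PPARb arrays.

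Fasn, the multi-enzyme protein that assembles palmitate, read 3785 and 2151 in MCK-PPARb muscle and 727 and 1217 in non-transgenic muscle. Both MCK-PPARb arrays were higher, with the widest gaps between the replicates of a group among the 10 genes. The fitted ratio was 3.03-fold, a difference of 1.60 ± 0.36 that did not pass (adjusted p = 0.144), with an interval of 0.75 to 2.45. Fasn was larger in difference than Scd1 but less precise, and it has 1 probe set here. It ranged from 1.19 without MCK-PPARb replicate 1 to 2.01 without MCK-PPARb replicate 2, and it passed without non-transgenic replicate 2 (1.97, adjusted p = 0.0421).

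The stearoyl-CoA desaturase genes Scd1 and Scd2 encode close relatives that turn saturated into monounsaturated fatty acids, and in the GRCm38.p6 gene table they lie on chromosome 19 with Scd4 as the protein-coding gene between them. Scd1, the main form of liver and fat, had a signal of 14480 and 11719 in MCK-PPARb muscle and 4092 and 5233 in non-transgenic muscle. It rose 2.82-fold, a difference of 1.49 ± 0.21 (adjusted p = 0.0348). Its other probe set, at 2145 and 1002 in MCK-PPARb muscle and 703 and 326 in non-transgenic muscle, differed by 1.62 ± 0.49 without passing by itself (adjusted p = 0.283). Both probe sets of Scd1 thus placed the MCK-PPARb arrays above the non-transgenic ones. The call was lost without MCK-PPARb replicate 1 (1.34, adjusted p = 0.144), without MCK-PPARb replicate 2 (1.65, adjusted p = 0.0686), without the intensity trend (adjusted p = 0.164) and when its probe sets were averaged (1.55, adjusted p = 0.121).

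Scd2, the form prominent in brain, read 2539 and 3178 in MCK-PPARb muscle and 1985 and 2228 in non-transgenic muscle. The groups did not overlap, and the gap between them was smaller than that between the MCK-PPARb arrays. The difference of 0.43 ± 0.23 did not pass (adjusted p = 0.562), with an interval of -0.094 to 0.96, and it was 0.27 without MCK-PPARb replicate 2. A further kept probe set gave 0.24 ± 0.25, and the dim one 0.055 with overlapping groups. The intervals of Scd1 (0.99 to 1.99) and Scd2 did not overlap, but a test of the difference between them was not made. Scd3, another family member, lay below the filter, at 519 and 185 in MCK-PPARb muscle and 386 and 201 in non-transgenic muscle.

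Gpam, the mitochondrial acyltransferase that opens triglyceride synthesis, read 9129 and 9816 in MCK-PPARb muscle and 8301 and 9300 in non-transgenic muscle. The groups overlapped. Its difference was 0.11 ± 0.18 (0.026 to 0.19 with 1 array left out). On this probe set the interval of -0.31 to 0.53 does not reach the values of Acss1 or Scd1, though no test between the genes was made. Its other probe set read 4324 and 2782 in MCK-PPARb muscle and 5657 and 2381 in non-transgenic muscle (-0.082 ± 0.41).

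Dgat1 and Dgat2 encode unrelated proteins that catalyse the same last step of triglyceride synthesis. Dgat2 read 4437 and 3688 in MCK-PPARb muscle and 1706 and 2529 in non-transgenic muscle, and Dgat1 read 1646 and 1419 in MCK-PPARb muscle and 982 and 1099 in non-transgenic muscle. For both genes the MCK-PPARb arrays lay above the non-transgenic ones. The difference was 0.96 ± 0.26 for Dgat2 (adjusted p = 0.217) and 0.56 ± 0.25 for Dgat1 (adjusted p = 0.499), and neither passed. A further kept probe set of Dgat2 read 2894 and 2380 in MCK-PPARb muscle and 1403 and 1901 in non-transgenic muscle, a difference of 0.68 ± 0.25. Dgat1 has 1 probe set, whose suffix _s_at marks probes shared between transcripts that may belong to different genes.

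**Figure D2:**
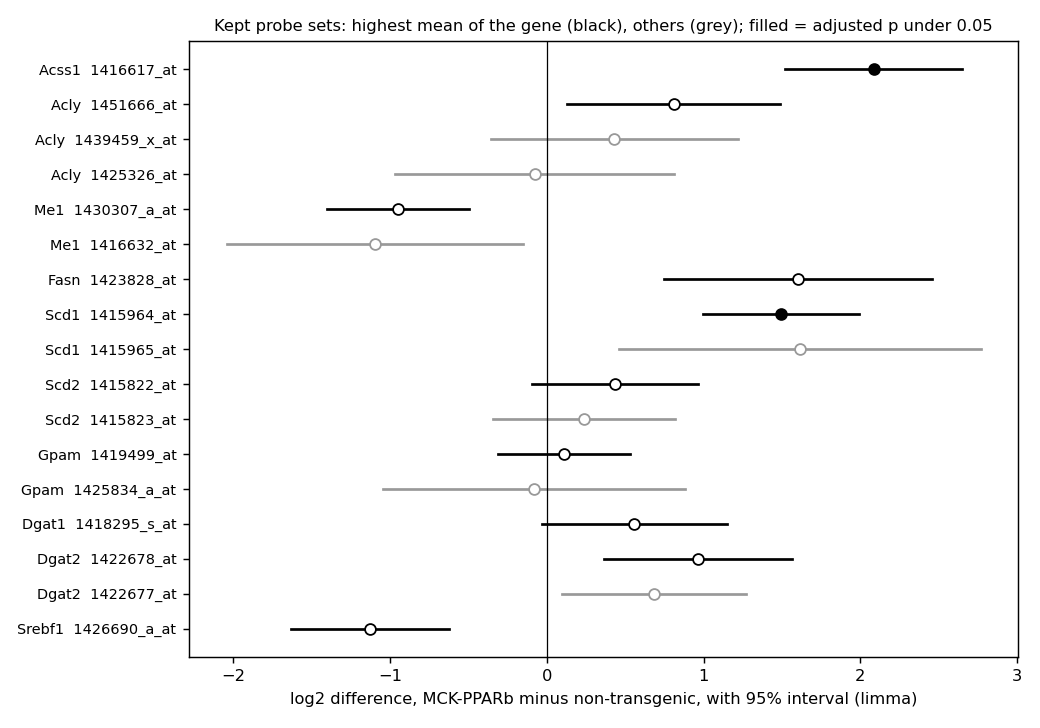
Log2 difference, MCK-PPARb minus non-transgenic, with its 95% interval from limma for the 17 kept probe sets of the 10 genes, with the representative probe set of each gene in black, others in grey, and filled points for an adjusted p under 0.05. The filled points are Acss1 at 2.08 and Scd1 at 1.49, and Me1 and Srebf1 have intervals wholly below 0.

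Srebf1, the regulator, read 1444 and 1579 in MCK-PPARb muscle and 3473 and 3128 in non-transgenic muscle. Both MCK-PPARb arrays were lower than both non-transgenic arrays, and replicates lay close together. The difference was -1.13 ± 0.22, 2.18-fold lower, with an interval of -1.63 to -0.62, and it did not pass (adjusted p = 0.0939). It lay between -1.23 and -1.05 in the 17 alternatives, many of which leave the difference unchanged by design. As the groups do not overlap, leaving out an array could not reverse its sign. It passed at an adjusted p under 0.1. The gene has 1 probe set, with the suffix _a_at for probes shared by transcripts of the gene, so transcripts from its different starts cannot be told apart here. The array measures transcripts and not the cleaved protein.

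The enzyme genes were then set against Srebf1 within each array, which cancels any scaling of an array and shows unequal change, not levels. Relative to Srebf1, 8 of the 9 enzyme genes were higher on both MCK-PPARb arrays than on both non-transgenic arrays, and Me1 overlapped. Across all genes tested 94.9% were higher in the same sense, so the enzymes' share lies near the background and mostly shows where Srebf1 itself stood. The log2 ratio to Srebf1 changed by 3.21 ± 0.25 for Acss1, 2.73 ± 0.65 for Fasn and 2.62 ± 0.33 for Scd1 (SE from the arrays, n = 2 per group). For Gpam it changed by 1.23 ± 0.16. For Me1 the ratio was 2.96 and 2.48 on the MCK-PPARb arrays and 2.48 and 2.61 on the non-transgenic arrays, a change of 0.18 ± 0.25. Me1 was thus the enzyme whose difference lay nearest to that of Srebf1. The median change over the 9 enzymes was 1.94, against 1.14 for the median of all genes tested, and the exact two-sided permutation p of each of the 8 ratios was 0.333, the smallest possible.

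Replicates of a group also differed in order. Acss1, Acly, Fasn, Scd1, Dgat1 and Dgat2, 6 of the 10 genes, were brighter on MCK-PPARb replicate 1 than on replicate 2 and less bright on non-transgenic replicate 1 than on replicate 2, an order found in 19.6% of all genes tested. The log2 gap, replicate 1 minus replicate 2, was 0.82 in the MCK-PPARb group and -0.74 in the non-transgenic group for Fasn, 0.61 and -0.40 for Acly, and 0.31 and -0.36 for Scd1. Me1, Scd2 and Gpam did not have this order, and Srebf1 had the reverse one, with gaps of -0.13 and 0.15. This order was noticed in the values and received no test.

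Other genes of the same pathways came from lists that leave out the 10 genes. The lists were chosen with earlier results of these data known. An unadjusted limma p under 0.05 was found for 10.9% of all genes tested. That share belongs beside each such count below, those of the cell type markers included. Of 16 further genes of fatty acid synthesis, 15 had a probe set, 9 passed the filter, and none rose or fell, also not at an unadjusted p under 0.05 (0 genes in limma). Their median difference was 0.12. The mitochondrial malonyltransferase gene Mcat had a difference of 0.48 ± 0.24 and the elongase genes Elovl1 and Elovl5 of 0.44 ± 0.23 and -0.35 ± 0.22. Acacb, the acetyl-CoA carboxylase typical of muscle, read 7202 and 6118 in MCK-PPARb muscle and 6437 and 5816 in non-transgenic muscle. It overlapped between the groups (0.12 ± 0.19). Acaca, the carboxylase of lipogenic tissues, lay below the filter at 465 and 182 in MCK-PPARb muscle and 457 and 138 in non-transgenic muscle, as did the elongase Elovl6 at 450 and 337 against 356 and 342. Of the carboxylase and elongase genes, Acacb, Elovl1 and Elovl5 were tested and not called. Acaca, Elovl6 and Elovl7 lay below the filter and could not be called in the main fit.

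Of 20 further genes of triglyceride assembly and lipid droplets, 15 had a probe set and 11 passed the filter. None rose or fell (unadjusted limma p under 0.05 for 2), and the median was 0.41. Lpin1, a phosphatidate phosphatase, read 9264 and 7845 in MCK-PPARb muscle and 12084 and 12442 in non-transgenic muscle (-0.52 ± 0.18). The acyltransferase gene Agpat3 had a difference of 0.54 ± 0.20 and the droplet protein gene Plin4 of 0.44 ± 0.19, neither passing. Lpin1 therefore lay on the other side of 0 from Dgat2, the next enzyme of the path.

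Of 12 further genes of acetyl-CoA supply, 9 had a probe set and 7 passed the filter, and none rose or fell, with an unadjusted p under 0.05 for 1. Their median was 0.017. The 1 gene was Acss2, the cytosolic acetyl-CoA synthetase. It read 3520 and 3596 in MCK-PPARb muscle and 2352 and 1677 in non-transgenic muscle, a difference of 0.84 ± 0.24 (adjusted p = 0.244). Acss1 and Acss2 were therefore each brighter on both MCK-PPARb arrays, but Acss1 alone passed. Of all genes tested 22.2% lay wholly above, and the relative Acss3 had no probe set named here. Crat, carnitine acetyltransferase, had a difference of 0.40 ± 0.20, and Pdha1, a subunit of pyruvate dehydrogenase, of -0.32 ± 0.18. The citrate carrier gene Slc25a1 had no probe set named here.

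Of 9 further genes of NADPH supply, 7 had a probe set and 6 passed the filter. None rose or fell (unadjusted limma p under 0.05 for 3), and the median was 0.28. Idh2, mitochondrial isocitrate dehydrogenase, read 19915 and 25078 in MCK-PPARb muscle and 11291 and 13173 in non-transgenic muscle (0.87 ± 0.20, adjusted p = 0.144). Its cytosolic counterpart Idh1 read 563 and 938 in MCK-PPARb muscle and 1314 and 1255 in non-transgenic muscle (-0.82 ± 0.33, adjusted p = 0.433). Pgd, of the pentose phosphate path, had a difference of 0.79 ± 0.27. Me1 and Idh1 thus had both MCK-PPARb arrays below the non-transgenic ones, whereas Pgd and Idh2 had them above, and none of these genes passed. Over all genes tested 20.8% lay wholly below and 22.2% wholly above. G6pdx had no probe set named here.

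Of 21 further regulators, 16 had a probe set and 14 passed the filter. None rose or fell (unadjusted limma p under 0.05 for 2), and the median was 0.21. Mid1ip1, an activator of acetyl-CoA carboxylase, read 8550 and 8580 in MCK-PPARb muscle and 5406 and 3103 in non-transgenic muscle (1.06 ± 0.27, adjusted p = 0.198), and the nuclear receptor gene Ppara had a difference of 0.98 ± 0.38 (adjusted p = 0.411). The coactivator gene Ppargc1b had a difference of 0.35 ± 0.20. Srebf2, the relative of Srebf1 that serves cholesterol synthesis, read 1224 and 1250 in MCK-PPARb muscle and 1142 and 1038 in non-transgenic muscle (0.18 ± 0.25). Its interval of -0.40 to 0.77 does not reach the value of Srebf1, though no test between the genes was made. The escort protein gene Scap (-0.32 ± 0.27) and the retention factor gene Insig2 (-0.31 ± 0.24) did not pass, nor did the carbohydrate-responsive Mlxipl (-0.27 ± 0.20), the liver X receptor gene Nr1h3 (0.50 ± 0.34) or Thrsp (0.28 ± 0.47). Insig1 had no probe set named here.

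Of 20 genes of cholesterol synthesis and uptake, 16 had a probe set and 8 passed the filter. None rose or fell (unadjusted limma p under 0.05 for 1), and the median was -0.0031. That gene was Fdft1, squalene synthase, at 4574 and 4811 in MCK-PPARb muscle and 3097 and 3307 in non-transgenic muscle (0.55 ± 0.19, adjusted p = 0.348). Fdps had a difference of 0.27 ± 0.28 and Dhcr7 of -0.31 ± 0.33.

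**Figure D3:**
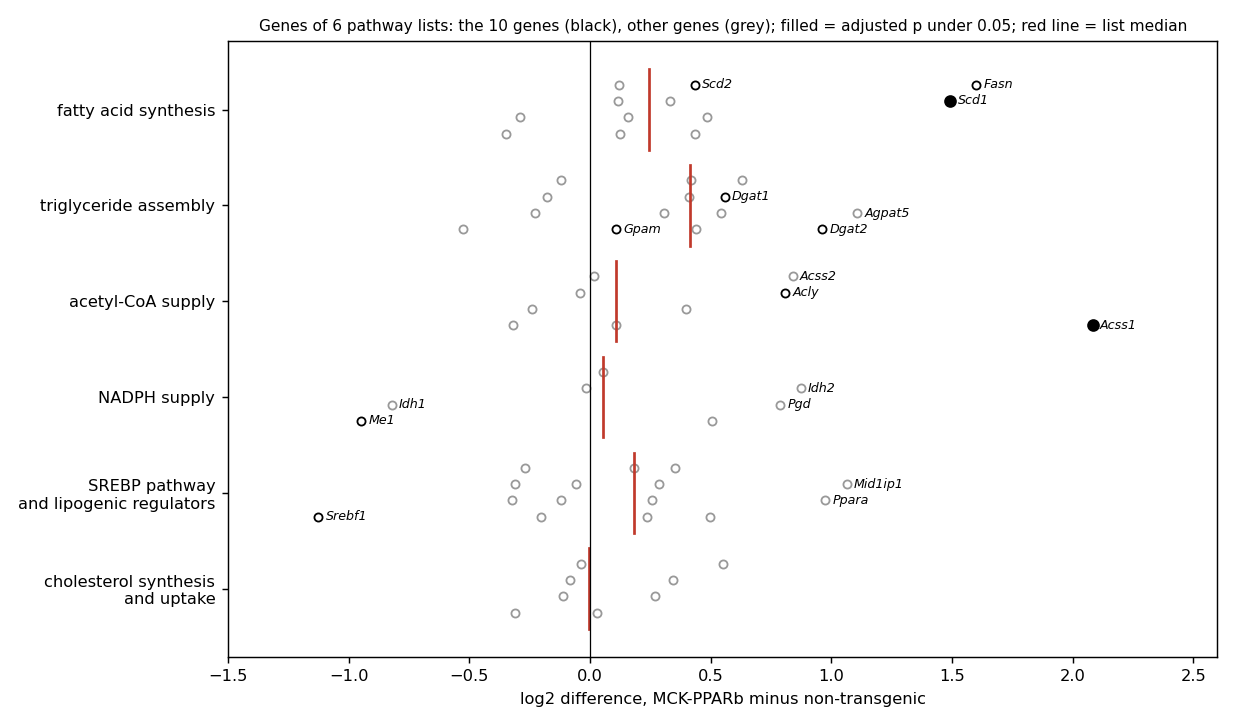
Log2 difference, MCK-PPARb minus non-transgenic, of each gene that passed the filter in the 6 pathway lists, with the 10 genes in black, other genes in grey, filled points for an adjusted p under 0.05 and a red line at the list's median (the 10 genes included). Only Acss1 and Scd1 are filled, and Srebf1 at -1.13 and Me1 at -0.95 lie farthest to the left.

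Several of these enzymes are abundant in fat, so markers of other cell types are given beside them. In whole muscle, a change in the number of cells of a type and a change in RNA per cell cannot be told apart. Of 8 adipocyte markers, 6 had a probe set and 3 passed the filter, and none rose or fell, with an unadjusted p under 0.05 for 2. Adipoq, the fat hormone adiponectin, read 2567 and 3076 in MCK-PPARb muscle and 1151 and 1648 in non-transgenic muscle (1.03 ± 0.26, adjusted p = 0.194). Retn, resistin, read 1565 and 1387 in MCK-PPARb muscle and 805 and 652 in non-transgenic muscle (1.02 ± 0.27, adjusted p = 0.219). Both were brighter on both MCK-PPARb arrays, as were Scd1, Fasn and Dgat2 and 22.2% of all genes tested. Fabp4, the brightest marker of the list and also made by endothelium, read 8234 and 7521 in MCK-PPARb muscle and 7277 and 11715 in non-transgenic muscle and overlapped (-0.23 ± 0.25). Lep, Cidec and Pparg lay below the filter, with differences of -0.80, -0.47 and -0.72, on the other side of 0 from Adipoq and Retn. Lep was lower on both MCK-PPARb arrays, and Cidec and Pparg overlapped. The summed adipocyte signal was 12533 and 12434 in MCK-PPARb and 9611 and 14422 in non-transgenic muscle and overlapped, and no marker was listed at 0. The part of fat in the signals of Scd1, Fasn, Dgat2 and Acss1 was not tested.

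Of 8 markers of Schwann cells and nerve, which make much lipid for myelin, 5 had a probe set and 3 passed the filter. None rose or fell, with an unadjusted limma p under 0.05 for 2. Their summed signal was 30447 and 34168 in MCK-PPARb and 18251 and 20115 in non-transgenic muscle, so the MCK-PPARb arrays were higher. Mbp, a myelin protein gene, read 13324 and 14763 in MCK-PPARb muscle and 7616 and 6856 in non-transgenic muscle (0.96 ± 0.18, adjusted p = 0.0928), and Pmp22 had a difference of 0.67 ± 0.21. Sox10, the third, had a difference of 0.29 ± 0.30. The dim markers lay on the other side of 0, with Mag at 447 and 398 in MCK-PPARb muscle and 463 and 460 in non-transgenic muscle, and S100b at 221 and 23.9 in MCK-PPARb muscle and 150.3 and 128.5 in non-transgenic muscle, where the S100b groups overlap. Their part in the signals of Scd1, Scd2 and Fasn was not tested.

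Among 6 leukocyte markers the macrophage gene Adgre1 read 1510 and 1648 in MCK-PPARb muscle and 818 and 958 in non-transgenic muscle (0.83 ± 0.26, adjusted p = 0.287). The brightest of them, Csf1r and Lyz2, had differences of -0.016 and -0.25, and the summed signal was 8024 and 8318 in MCK-PPARb and 7976 and 7255 in non-transgenic muscle. The 4 endothelial markers summed to 8341 and 8126 in MCK-PPARb and 7803 and 8771 in non-transgenic muscle, and the brightest, Cdh5, Pecam1 and Kdr, had differences of -0.23, 0.19 and 0.23. The 4 fibroblast markers summed to 184606 and 162183 in MCK-PPARb and 186074 and 174306 in non-transgenic muscle, with -0.16 for Dcn, 0.080 for Col1a1 and -0.13 for Col3a1. None of the leukocyte, endothelial or fibroblast markers rose or fell. The hepatocyte markers Alb, Apoa1 and Ttr all lay below the filter and summed to 995 and 438 in MCK-PPARb and 480 and 316 in non-transgenic muscle.

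**Figure D4:**
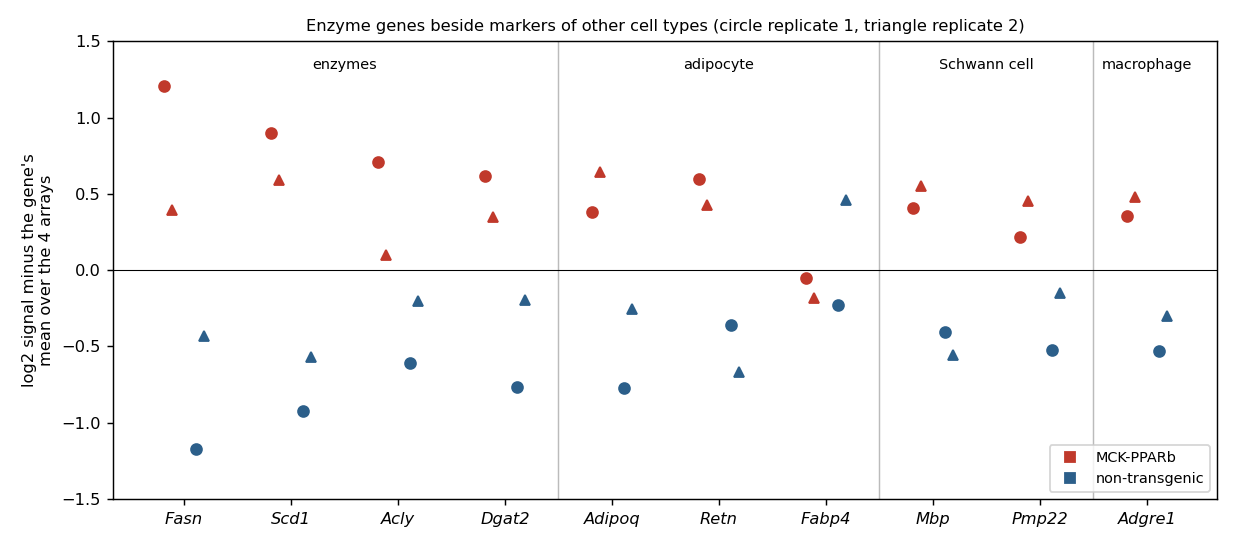
Log2 signal on each array minus the gene's own mean over the 4 arrays, for 4 enzyme genes and for markers of adipocytes, Schwann cells and macrophages, with MCK-PPARb in red left of non-transgenic in blue, replicate 1 as a circle and replicate 2 as a triangle. Adipoq and Retn are higher on both MCK-PPARb arrays like the 4 enzyme genes, while Fabp4 overlaps, and Fasn shows the widest gaps between replicates. The genes shown were picked from longer lists. Of the markers left out, Sox10, Cd14 and Cd68 had differences above 0. Lep, Cidec, Pparg, Mag, S100b, Csf1r, Lyz2 and Ptprc had differences below 0. The enzyme genes left out were above 0 except Me1.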

How the data were processed

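Gastrocnemius RNA, isolated with RNAzol B and turned into biotinylated cRNA per the labels' protocols, was hybridised to 4 arrays. The authors deposited a signal intensity for each probe set, linear and scaled to a common level. The submitters' processing notes name MAS5 and GCOS. Tool versions were not given in the sources used here. All 10 genes, lists and tests were chosen with earlier results of these data known.

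Of 22690 probe sets, 64 controls were left out. Of the rest, 20380 carried 1 symbol, 691 several and 1555 none, and 20351 symbols were matched by gene number (GRCm38.p6 gene table). The log2 signals, with no pseudocount, were fitted with limma 3.58.1 in R 4.3.3 (lmFit, eBayes with intensity trend, two-sided, Benjamini-Hochberg). The fit held the 11313 probe sets whose mean log2 signal exceeded the median, 444 signal units. Limma's prior contributed 5.38 degrees of freedom beside the 2 residual ones. The fit was tested on simulated data. Groups follow the titles. The text names all 10 genes, the 3 genes of smallest p in each pathway list, here counted without the 10 genes, a fixed set of pathway genes, and the 3 brightest markers of each cell type. Scd3 was picked out later. Alternatives covered normalization, pseudocount, floor, filter, eBayes settings, threshold, probe set choice, a replicate block and each array left out.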

Additional observations from a re-analysis of the deposited data

How the results depend on the processing

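The number of called probe sets was 68 (38 higher, 30 lower), and 2 of the 10 genes were called. Median centring gave 116 probe sets (48 higher, 68 lower) and put the median of all kept probe sets at -0.089, where it was 0.017 with signals as deposited. Without the intensity trend 21 probe sets and 0 of the 10 genes were called with limma, with an unadjusted p under 0.05 for 7. At an adjusted p under 0.1 there were 150 probe sets (1.33% of those kept), with Srebf1 added to Acss1 and Scd1. When the probe sets of a gene were averaged, 0 of the 10 genes were called and 5 had an unadjusted p under 0.05. Leaving out 1 array in turn gave 36 to 159 probe sets and 0 to 3 of the 10 genes, with 0 without MCK-PPARb replicate 1, where 6 had an unadjusted p under 0.05. In those fits a lone array is assumed to vary like the other group. The median change of the enzymes relative to Srebf1 was 1.94, and 1.66 to 2.29 with an array left out.

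Equal replicate numbers are not stated to mean a shared litter or day, and deviations of same-numbered arrays correlated at 0.28 over 11313 probe sets. With the number as a replicate block 377 probe sets were called (209 higher, 168 lower). That is 3.33% of those kept, against 0.601% in the main fit, so calls rose among the kept probe sets at large. Of the 10 genes 6 were called, Acss1, Scd1, Fasn, Srebf1, Me1 and Dgat2, with the same differences. The block also uses up residual degrees of freedom.

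None of the 10 genes changed sign in any of its 16 or 17 alternatives, but few of these could change it. Filter, eBayes, threshold and block settings leave the difference as it is. Leaving out an array cannot reverse it where the groups do not overlap, which holds for all the genes but Gpam. Quantile normalization without non-transgenic replicate 1 was chosen after seeing the data and called Acss1 and Scd1. Dgat1 lies below the filter at the 75th percentile. The dim probe sets of Acss1, Acly and Scd2, like the dim cell markers, lay below the filter on mean log2 signal. Little can be read from their direction.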
